A study of Mus musculus with 22 samples.

Results

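The genes described here are those that encode voltage-gated ion channels, potassium channels and their auxiliary subunits: every gene whose symbol starts with Kcn or Cacn, or with Hcn or Scn followed by a digit. The symbol alone decides whether a gene belongs, and the group was proposed with earlier results of these data known. There were 99 such genes among the 12596 in the table. The mouse RefSeq annotation (GRCm38.p6) holds 138 protein-coding genes of this kind, and the other 39 have no row in the table and were not analysed here. The 99 genes comprise 64 potassium channel genes, 22 calcium channel genes, 9 sodium channel genes and the 4 HCN genes. By subunit, 70 encode pore-forming subunits and 29 encode auxiliary subunits.

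RNA was sequenced from 11 mice in which Th-cre was crossed with Slc6a2-eGFP/Rpl10a on the C57Bl/6 background. The second transgene puts a green fluorescent tag on the ribosomal protein RPL10A under control of the noradrenaline transporter gene, so that ribosomes of noradrenergic cells, with their RNA, can be pulled down. Controls carried both transgenes too, per the series' design text. Age, sex, the vector and the time after infusion were not given in the sources used here. Infusion was of hTyr, human tyrosinase, the enzyme that drives pigment formation, in 5 animals, and of the fluorescent protein EYFP in 6 control animals. Each animal gave a library of immunoprecipitated RNA (IP), labelled noradrenergic, and a library of the RNA before immunoprecipitation (input), labelled total hindbrain. The 4 groups are therefore EYFP IP and EYFP input (n = 6 each) and hTyr IP and hTyr input (n = 5 each). Libraries held between 12654489 and 25100142 reads over the genes of the table. In the text, an animal is named by its treatment and the number in the sample titles, as hTyr-501 or EYFP-504. Where the values of all 5 hTyr animals are given, they stand in the order hTyr-501, hTyr-502, hTyr-508, hTyr-509 and hTyr-510.

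The locus coeruleus is the main noradrenergic nucleus of the brain, and its neurons fire spontaneously and regularly without synaptic drive. Such pacemaking rests on inward currents that depolarise the cell between spikes (sodium, calcium and leak channels, and in many pacemaker cells the HCN channels that open on hyperpolarisation) and on potassium currents that shape the spike, its afterhyperpolarisation and the interval to the next. In locus coeruleus neurons, inward rectifier potassium channels also carry the inhibition by noradrenaline itself and by opioids. RNA from bulk tissue gives no level per cell: fewer cells of a type and less RNA per cell cannot be told apart in any of the values below.

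The label of the IP libraries was checked first. All 10 noradrenergic marker genes were higher in IP than in input in both treatments, with a median log2 difference of 1.96 in EYFP animals and 2.64 in hTyr animals. Dbh, which makes noradrenaline from dopamine, was higher by 4.02 and 4.30. The summed level of the 10 markers was 170 to 202 CPM (read counts scaled to the size of the library) in EYFP input and 610 to 1.29e+03 CPM in EYFP IP, and 174 to 217 CPM against 743 to 2.1e+03 CPM in hTyr. RNA of other cells remained in the IP: the 9 oligodendrocyte markers summed to 6.01e+03 to 7.73e+03 CPM in EYFP IP against 6.38e+03 to 8.4e+03 CPM in EYFP input, and the 7 astrocyte markers to 2.73e+03 to 4.05e+03 against 2.3e+03 to 2.81e+03 CPM. Serotonergic (2 of 2 genes) and cholinergic (2 of 2 genes) markers also were called higher in IP in both treatments. The 4 inhibitory neuron markers summed to 630 to 933 CPM in EYFP IP against 547 to 670 CPM in EYFP input. In hTyr animals they summed to 645 to 923 against 513 to 647 CPM. In EYFP animals Gad1, Gad2 and Slc32a1 were called higher, by 0.84, 0.33 and 0.22, and Slc6a5, at -0.12, was not called. Of the 2 glutamatergic markers, Slc17a6 was called higher in EYFP animals, by 1.08, and Slc17a7, at -0.43, was not called. The part of these other cells in the channel results was not tested, and no channel level below can be assigned to noradrenergic cells alone.

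Levels spanned a wide range. Compared per kilobase of the longest annotated transcript, abundant channel genes in EYFP IP included Kcnab2, a cytoplasmic beta subunit of potassium channels, with a mean of 7.74 log2 CPM per kb, and Hcn2 with 7.27. Others were Cacng7 with 6.36 and Scn2b, a sodium channel beta subunit, with 5.85 log2 CPM per kb. The lowest per kilobase were Kcnb2 at -0.49, Kcnn3 at -0.37 and Scn9a at -0.24 log2 CPM per kb. Among the pore-forming sodium channel genes, the order in EYFP IP was Scn1a at 4.37, Scn8a at 3.69, Scn2a1 at 2.71, Scn3a at 0.88 and Scn9a at -0.24 log2 CPM per kb. Hcn2 at 7.27 was followed by Hcn3 at 2.44 and Hcn4 at 0.11. These lengths are those of an annotation, not of the transcripts expressed, and the levels include RNA of all cells left in the IP.

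The first question was which channel transcripts the IP held more or less of than the whole hindbrain sample. A gene is called here when its p-value from limma, adjusted by Benjamini-Hochberg over all 12596 genes, is under 0.05, and all adjusted p-values below are of this kind. In EYFP animals 55 of the 99 channel genes were called (55.6%), against a background of 56.5% of all genes. Of these 55, 20 were higher in IP (background 28.5% of all genes) and 35 were lower (background 28.1%). In hTyr animals 63 were called (background 54.4%), 22 higher (background 27.4%) and 41 lower (background 27.0%). The share of channel genes called was thus near that of all genes in EYFP animals. In hTyr animals, with 63 of 99 against 54.4%, it was above that of all genes, a difference that was not tested. In both treatments more of the called channel genes were lower than higher. The same backgrounds apply to the counts by family below, and whether a family departed from them was not tested. The median log2 difference of the 99 genes was -0.125 in EYFP animals and -0.202 in hTyr animals, beside -0.025 and -0.036 for all genes. Differences were mostly small: a call with a difference of at least 1 on the log2 scale was made for 2 higher and 1 lower channel genes in EYFP animals (background 3.06% and 0.492% of all genes), and for 4 higher and 2 lower in hTyr animals (background 5.43% and 1.10%). IP and input libraries did not overlap for 11 higher and 17 lower channel genes in EYFP animals (background 16.7% and 13.4% of all genes) and for 13 higher and 22 lower in hTyr animals (background 20.7% and 16.8%).

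The balance between higher and lower calls moved when the length and GC content of the transcripts were taken into account together. Once the dependence on the length and GC content of transcripts was taken out of each library (the trend below), 23 channel genes were called higher and 20 lower in EYFP animals, and 19 higher and 22 lower in hTyr animals. With the trend removed, 6876 of 12375 genes were called in EYFP animals and 6413 in hTyr animals, beside 7123 and 6853 of 12596 before. With the animal as a block, the channel counts rose to 29 higher and 42 lower in EYFP animals and to 25 higher and 43 lower in hTyr animals. Calls over all genes rose to 8133 and 7440. With both changes together the channel counts were 29 higher and 28 lower, and 26 higher and 29 lower, and 7834 and 7215 of 12375 genes were called. Leaving out animals EYFP-504, EYFP-506 and EYFP-511 together, which had the highest levels of the cerebellar markers Gabra6 and Pcp2, left 30 calls in EYFP animals, 13 higher and 17 lower, from 3 animals. Over all 12596 genes the calls fell likewise, from 7123 to 3619. The labels name no batch. P-values measure the spread between these animals.

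The calls of both treatments were then set side by side. Of the 55 genes called in EYFP animals and the 63 called in hTyr animals, 47 were called in both, which is 85.5% of the first and 74.6% of the second, and all 47 had the same direction. Over all genes 5830 were called in both, 81.8% of those called in EYFP animals and 85.1% of those called in hTyr animals, and 5826 of them had the same direction. Channel genes thus shared a similar part of the EYFP calls and a smaller part of the hTyr calls, a difference that was not tested. The 15 genes higher in IP in both treatments included Scn1a, Scn2a1, Cacna1e, Cacna2d1, Cacna2d3, Kcna2, Kcna4, Kcnb2, Kcnd2, Kcnd3, Kcnab1, Kcnip4, Kcnj3 and Kcnt2. The 32 lower in both included Hcn2, Hcn4, Scn4b, Cacna1d, Cacna1g, Cacna1i, Cacna2d4, Cacnb2, Cacng2, Cacng4, Cacng7, Kcnc1, Kcnc4, Kcns3, Kcnh2, Kcnip3, Kcnj11, Kcnj12, Kcnj14, Kcnk2, Kcnk3, Kcnk4, Kcnk9, Kcnk12, Kcnk13, Kcnn1 and Kcnn2. A further 28 of the 99 genes were called in neither treatment, as were 4450 of all 12596. EYFP and hTyr animals are separate animals, so these are separate measurements of the same contrast, while all 22 libraries share 1 normalization. Leaving out 1 animal ended 17 of the 55 calls in EYFP animals and 18 of the 63 in hTyr animals for at least 1 choice of the animal. In EYFP animals these calls included Cacna1g, Cacna2d4, Kcnk4, Kcnk13, Kcnn1, Kcnn2, Kcnn3, Kcnmb2, Scn4b, Scn8a and Scn9a. In hTyr animals they included Hcn4, Cacna1c, Cacna1e, Cacna2d4, Kcnip2, Kcnk4, Kcnk13, Kcnn2, Scn2b, Scn3b and Scn4b. The highest adjusted p reached in this way was 0.220, for Scn8a in EYFP animals.

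**Figure D1:**
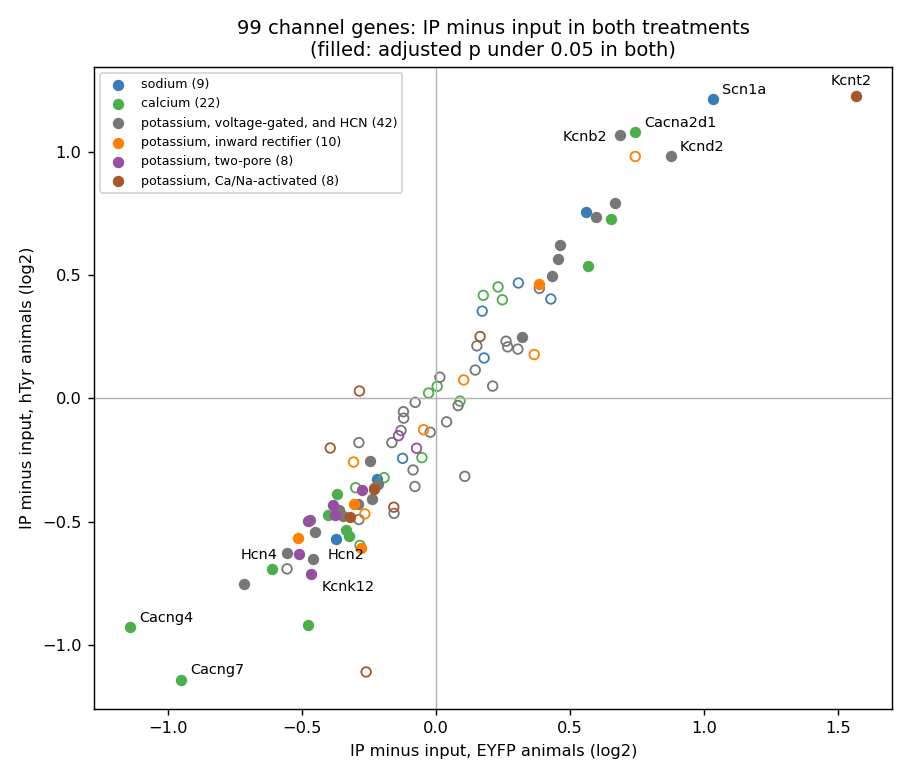
Log2 difference between IP and input for each of the 99 channel genes in EYFP animals (x axis) and hTyr animals (y axis), coloured by channel class, with filled points for the 47 genes called in both treatments. Kcnt2 and Scn1a lie furthest up in both. Cacng4 and Cacng7 are the 2 lowest in EYFP animals, Cacng7 and the open point of Kcnmb4 in hTyr animals, and the 8 two-pore potassium channel genes all lie below 0 on both axes.

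The largest rise was that of Kcnt2, which encodes a sodium-activated potassium channel of slow afterhyperpolarisation. In EYFP animals its IP libraries lay between 1.80 and 3.22 log2 CPM (median 2.59) and its input libraries between 0.44 and 1.59 (median 1.01). In hTyr animals the IP values were 2.29, 1.95, 2.55, 3.27 and 2.47 log2 CPM, and the input values 1.12, 1.35, 1.17, 1.78 and 0.99. All IP libraries lay above all input libraries within each treatment. The log2 difference was 1.57 ± 0.25 (SE, n = 6; adjusted p = 8.44e-05) in EYFP animals and 1.23 ± 0.27 (SE, n = 5; adjusted p = 0.000944) in hTyr animals, and 41 of all genes rose more than it in EYFP animals. The gene is lowly expressed, with 65 to 158 reads per library in EYFP IP and 23 to 60 in EYFP input, and per kilobase it was the last of the 99 genes in EYFP input. With the length and GC trend removed, the difference was 1.07 (adjusted p = 0.00103) in EYFP animals and 0.53 (adjusted p = 0.0681) in hTyr animals.

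Scn1a, which encodes the pore of a sodium channel of fast-firing neurons, was the other channel gene that rose by over 1 in both treatments. Its EYFP IP libraries lay between 6.79 and 7.69 log2 CPM (median 7.63) and its EYFP input libraries between 5.88 and 6.63 (median 6.48). In hTyr animals the IP values were 7.37, 7.30, 7.58, 7.61 and 7.72 log2 CPM and the input values 5.81, 6.34, 6.35, 6.40 and 6.62. IP and input did not overlap, and within animals the difference ran from 0.59 in animal EYFP-511 to 1.56 in animal hTyr-501. The log2 difference was 1.03 ± 0.15 (SE, n = 6; adjusted p = 3.59e-05) in EYFP animals and 1.21 ± 0.12 (SE, n = 5; adjusted p = 6.57e-07) in hTyr animals. It kept its direction and its call with the length and GC trend removed, at 0.72 and 0.78.

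The largest falls among genes without overlap of IP and input in both treatments were those of Cacng4 and Cacng7, which encode gamma subunits of the family that includes auxiliary proteins of AMPA-type glutamate receptors as well as of calcium channels. Cacng4 lay between 2.94 and 3.68 log2 CPM (median 3.41) in EYFP IP and between 4.43 and 4.61 (median 4.53) in EYFP input. In hTyr animals it was 4.11, 4.16, 3.21, 3.47 and 3.29 log2 CPM in IP and 4.81, 4.57, 4.55, 4.49 and 4.46 in input. The IP libraries of animals hTyr-501 and hTyr-502 were closer to input than those of the other 3 hTyr animals, and IP and input still did not overlap. The log2 difference of Cacng4 was -1.14 ± 0.11 (SE, n = 6; adjusted p = 9.65e-07) and -0.93 ± 0.17 (SE, n = 5; adjusted p = 0.000259), and 24 of all genes fell more in EYFP animals.

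Cacng7 lay between 7.07 and 7.96 log2 CPM (median 7.38) in EYFP IP and between 8.33 and 8.58 (median 8.46) in EYFP input. The hTyr values were 7.57, 7.48, 7.54, 6.88 and 7.53 log2 CPM in IP and 8.65, 8.52, 8.60, 8.51 and 8.43 in input. Every input library lay above every IP library, and animal hTyr-509 had the lowest IP value. The log2 difference was -0.95 ± 0.13 (SE, n = 6; adjusted p = 2.05e-05) and -1.14 ± 0.12 (SE, n = 5; adjusted p = 5.13e-07), and with the trend removed it was -0.81 and -0.92, called in both treatments. Cacng2, the gamma subunit gene known as stargazin, fell with them, by 0.61 and 0.69, with adjusted p-values of 7.10e-06 and 0.000145. Of the 6 gamma subunit genes in the table, 3 fell and none rose in EYFP animals, and 4 fell and 2 rose in hTyr animals.

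The promoters of 3 of these genes are shown because the genes lie at the ends of the range: Kcnt2 and Scn1a, the genes that rose most, and Cacng7, which fell. Each is the RefSeq promoter window of GRCm38.p6, from 250 bases before to 50 bases after an annotated start, 5′ to 3′ on the gene's strand. Capitals mark each CCAAT box, the letters CCAAT or their reverse complement. The Kcnt2 window is chr1:140245468-140245767 on the plus strand and overlaps the start of the gene, annotated at chr1:140245657-140614045. The Scn1a window is chr2:66440788-66441087 on the minus strand (gene at chr2:66270781-66440837), and the Cacng7 window is chr7:3332575-3332874 on the plus strand (gene at chr7:3332027-3368221).
Kcnt2: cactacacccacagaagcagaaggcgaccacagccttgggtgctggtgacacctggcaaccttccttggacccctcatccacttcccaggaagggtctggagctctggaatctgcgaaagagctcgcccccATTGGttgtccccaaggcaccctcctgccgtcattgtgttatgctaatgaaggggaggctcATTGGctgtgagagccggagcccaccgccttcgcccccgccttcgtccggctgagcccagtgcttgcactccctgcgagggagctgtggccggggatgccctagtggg
Scn1a: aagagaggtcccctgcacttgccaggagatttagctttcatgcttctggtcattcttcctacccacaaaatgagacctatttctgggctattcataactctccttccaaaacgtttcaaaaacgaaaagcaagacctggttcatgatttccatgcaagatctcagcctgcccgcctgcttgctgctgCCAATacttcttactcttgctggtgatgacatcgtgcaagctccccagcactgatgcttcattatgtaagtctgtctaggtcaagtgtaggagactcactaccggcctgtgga
Cacng7: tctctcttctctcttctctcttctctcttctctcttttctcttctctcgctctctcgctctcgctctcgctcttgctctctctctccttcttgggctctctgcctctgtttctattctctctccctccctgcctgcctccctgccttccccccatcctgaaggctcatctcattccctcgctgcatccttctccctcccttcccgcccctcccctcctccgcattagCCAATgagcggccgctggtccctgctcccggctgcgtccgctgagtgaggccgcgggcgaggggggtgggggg
The Kcnt2 window holds 2 CCAAT boxes, and those of Scn1a and Cacng7 hold 1 each. The Scn1a window has a GC content of 47.3% and 5 CpG sites, the Kcnt2 window 62.7% and 12, and the Cacng7 window 62.0% and 15. Over the table's genes the median window had a GC content of 61.0% and 20 CpG sites, and over the 104 windows of the 70 channel genes with an entry 59.5% and 10.

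Motifs were counted on both strands in all 12446 windows. The CCAAT box was in 37.1% of all windows and in 31.7% of those of channel genes. The GC box, searched as GGGCGG, was in 62.4% and 45.2%, and the TATA box, searched as TATAAA, in 6.83% and 5.77%. The cAMP response element, TGACGTCA, was in 3.09% of all windows and in 0 of the 104 of channel genes. None of these motifs contains another, and a match is a description of these letters in this window only.

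**Figure D2:**
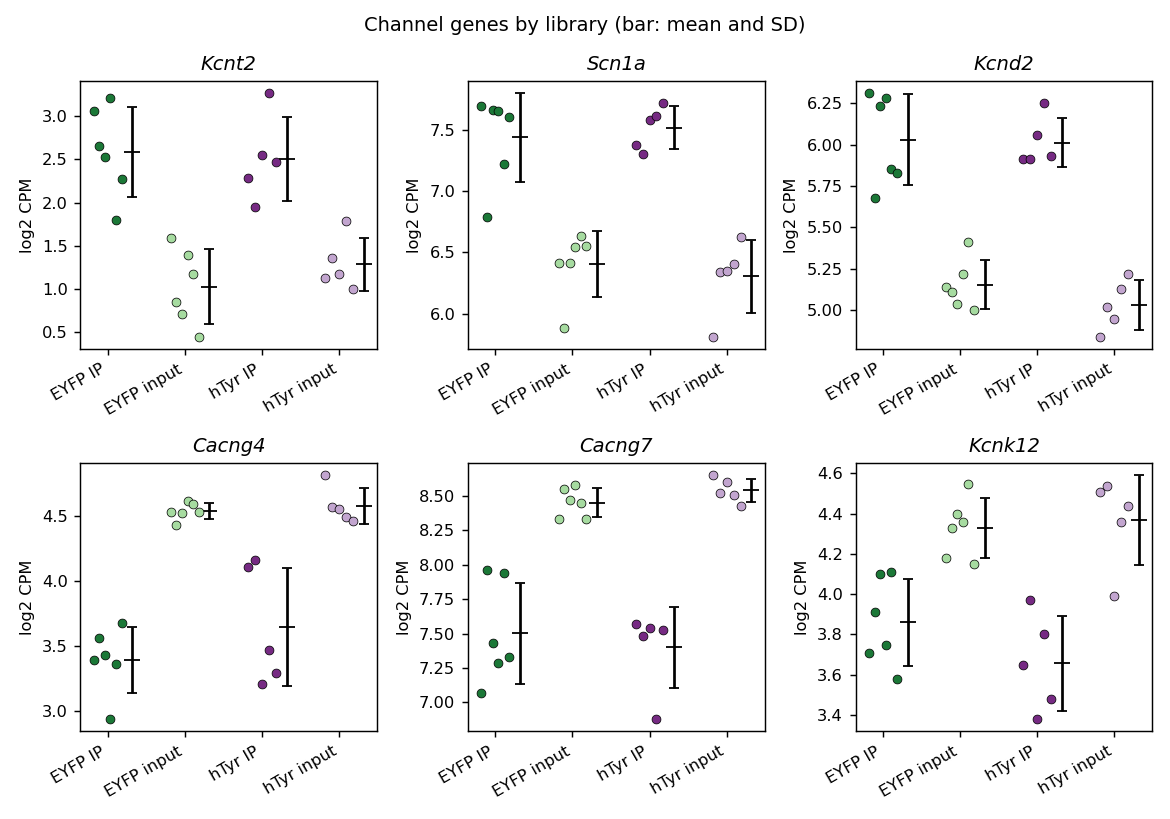
Log2 CPM of 6 channel genes in each library of the 4 groups, each point 1 library and the bar beside each group its mean and SD. Kcnt2, Scn1a and Kcnd2 lie higher in IP than in input in both treatments, and Cacng4, Cacng7 and Kcnk12 lie lower, with no overlap between IP and input within a treatment.

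HCN channels carry the hyperpolarisation-activated current that depolarises many pacemaker cells. Hcn2 and Hcn4 fell in IP in both treatments. Hcn2 lay between 8.72 and 9.17 log2 CPM (median 8.97) in EYFP IP and between 9.21 and 9.53 (median 9.40) in EYFP input. The hTyr values were 8.85, 9.03, 9.13, 8.57 and 8.87 log2 CPM in IP and 9.69, 9.56, 9.59, 9.46 and 9.43 in input. IP and input did not overlap in either treatment. The log2 difference of Hcn2 was -0.46 ± 0.08 (SE, n = 6; adjusted p = 0.000198) and -0.65 ± 0.10 (SE, n = 5; adjusted p = 4.12e-05). Hcn4 fell by 0.56 (adjusted p = 0.00314) in EYFP animals, where IP and input did not overlap, and by 0.63 (adjusted p = 0.0217) in hTyr animals, where they did. Without animal hTyr-501, hTyr-508 or hTyr-510 the hTyr call of Hcn4 was lost, with adjusted p-values of 0.0529 to 0.133. Hcn3 was called in neither treatment, with log2 differences of -0.12 and -0.08.

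The calls of Hcn2 and Hcn4 did not hold when the length and GC trend was removed. Hcn2 has a transcript GC content of 65.4%, near the upper end of the range of the channel genes. With the trend removed, Hcn2 was at -0.12 (adjusted p = 0.187) and -0.17 (adjusted p = 0.102), and Hcn4 at -0.24 (adjusted p = 0.133) and -0.21 (adjusted p = 0.390).

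All 5 genes for pore-forming sodium channel subunits, which carry the upstroke of the spike and its persistent current, lay above 0 in IP against input in both treatments. The test called 4 of 5 higher in EYFP animals and 3 of 5 in hTyr animals, with a median log2 difference of 0.43 and 0.47. Scn2a1, the gene usually written Scn2a, rose by 0.56 (adjusted p = 0.000510) and 0.75 (adjusted p = 0.000130). Scn3a rose in hTyr animals, by 0.47 (adjusted p = 0.00355), and was at 0.31 (adjusted p = 0.0603) in EYFP animals, where it was called with the animal as a block (adjusted p = 0.00445). Scn8a and Scn9a were called in EYFP animals alone, at 0.18 and 0.43, beside 0.16 and 0.40 in hTyr animals, and the EYFP calls were lost without 5 and 4 of the 6 animals. Removing the trend put Scn3a at -0.06 in EYFP animals and at -0.04 in hTyr animals, and Scn9a at -0.10 in hTyr animals.

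Genes for the beta subunits, which modulate gating and anchor the channel, were called in both directions. Scn4b, the subunit of resurgent current, fell by 0.22 (adjusted p = 0.0330) and 0.33 (adjusted p = 0.0267). Scn2b was at -0.12 in EYFP animals and fell by 0.24 (adjusted p = 0.02) in hTyr animals. Scn3b was at 0.17 in EYFP animals, with an adjusted p of 0.0317 under the block, and rose by 0.35 (adjusted p = 0.0236) in hTyr animals. The calls of Scn4b and Scn2b were lost with the trend removed. Scn4b was then at -0.03 (adjusted p = 0.785) and -0.075 (adjusted p = 0.602), and Scn2b at -0.14 (adjusted p = 0.0923) in hTyr animals. Scn3b stayed called in hTyr animals, at 0.32 (adjusted p = 0.0338).

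Of the 8 genes for pore-forming calcium channel subunits, 3 fell and 1 rose in EYFP animals, and 5 fell and 1 rose in hTyr animals. Cacna1d, the L-type channel that opens at low voltage and supports pacemaking in several kinds of neuron, fell by 0.33 (adjusted p = 0.00209) and 0.56 (adjusted p = 0.00394). Its direction and both calls were the same with the trend removed, where it was among the 12 genes that stayed lower in both treatments. The T-type channel genes Cacna1g and Cacna1i, whose channels open near rest, fell by 0.34 (adjusted p = 0.0161) and 0.40 (adjusted p = 0.000330) in EYFP animals, and by 0.54 (adjusted p = 0.00433) and 0.48 (adjusted p = 0.00135) in hTyr animals. Cacna1h, the remaining T-type gene, was at -0.28 (adjusted p = 0.209) in EYFP animals, where the fit with the animal as a block called it (adjusted p = 0.00847), and fell by 0.60 (adjusted p = 0.000840) in hTyr animals. These T-type calls were lost with the trend removed, and without animal EYFP-504 Cacna1g was at an adjusted p of 0.0529 in EYFP animals. Cacna1e, the R-type channel, rose by 0.57 (adjusted p = 0.000576) and 0.54 (adjusted p = 0.0274), the latter lost without animal hTyr-501, hTyr-502 or hTyr-510. Cacna1a (P/Q-type) and Cacna1b (N-type), the main channels of transmitter release, were called in neither treatment, though with the block Cacna1a, at -0.24, was called in hTyr animals (adjusted p = 0.0232). Trend removal turned Cacna1a to 0.21 in EYFP animals, where it was then called higher (adjusted p = 0.0300). In hTyr animals it turned to 0.11 (adjusted p = 0.252).

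Among auxiliary calcium channel genes, Cacna2d1 and Cacna2d3, whose products bring the channel to the membrane and of which the first binds gabapentin, rose. Cacna2d1 lay between 5.55 and 6.14 log2 CPM (median 5.84) in EYFP IP and between 4.87 and 5.36 (median 5.11) in EYFP input. It rose by 0.74 (adjusted p = 5.12e-05) and 1.08 (adjusted p = 2.21e-06), and Cacna2d3 by 0.65 (adjusted p = 6.39e-06) and 0.73 (adjusted p = 1.60e-05).

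The Kv1 to Kv4 families, which repolarise the spike and set the interval between spikes, held 5 higher and 4 lower genes of 14 in EYFP animals and 6 higher and 4 lower in hTyr animals. Of the 3 Kcnd genes, which encode A-type channels, Kcnd2 and Kcnd3 rose, and Kcnd1 was at -0.17 (adjusted p = 0.244) and -0.18 (adjusted p = 0.266). Kcnd2 lay between 5.68 and 6.31 log2 CPM (median 6.04) in EYFP IP and between 5.0 and 5.41 (median 5.12) in EYFP input, with no overlap, and rose by 0.87 (adjusted p = 1.03e-05). In hTyr animals it was 5.91, 5.91, 6.06, 6.25 and 5.93 log2 CPM in IP and 4.84, 5.02, 4.95, 5.13 and 5.22 in input, a rise of 0.98 (adjusted p = 4.82e-07). Kcnd3 rose by 0.46 (adjusted p = 0.00113) and 0.57 (adjusted p = 0.000210).

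Among the 9 genes for auxiliary subunits of voltage-gated potassium channels, 4 rose and 1 fell in EYFP animals, and 2 rose and 2 fell in hTyr animals. Kcnip4, a calcium-binding subunit of A-type channels, rose by 0.46 (adjusted p = 0.000414) and 0.62 (adjusted p = 0.000408), and Kcnab1, a subunit that speeds inactivation, by 0.67 (adjusted p = 6.03e-05) and 0.79 (adjusted p = 4.83e-06). Kcna4, another inactivating channel, rose by 0.60 (adjusted p = 0.000224) and 0.74 (adjusted p = 0.000567). Kcnd2, Kcnd3, Kcnip4, Kcnab1 and Kcna4 were all among the 9 genes that stayed higher in both treatments with the trend removed, with Scn1a, Scn2a1, Cacna2d1 and Cacna2d3. Kcnip3 fell by 0.25 in both treatments (adjusted p = 0.0116 and 0.0102), Kcnip2 was at -0.56 in EYFP animals and fell by 0.69 in hTyr animals, and Kcnip1 was called in neither.

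The delayed rectifier gene Kcnb2 rose in both treatments. It lay between 3.17 and 3.83 log2 CPM (median 3.35) in EYFP IP and between 2.52 and 2.91 (median 2.72) in EYFP input, a rise of 0.69 (adjusted p = 0.000271). The hTyr values were 3.77, 3.63, 3.43, 3.26 and 3.39 log2 CPM in IP and 2.10, 2.38, 2.25, 2.65 and 2.79 in input, a rise of 1.07 (adjusted p = 5.78e-05). Without the trend Kcnb2 was at 0.16 (adjusted p = 0.275) and 0.35 (adjusted p = 0.0788).

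Kcnc1, of the Kv3 family, whose fast channels allow high firing rates, fell by 0.35 (adjusted p = 0.000307) and 0.48 (adjusted p = 0.000249). With the trend removed Kcnc1 was called in neither treatment.

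Kcnq3 and Kcnq5, genes of the M-current, were called in neither treatment, except that with the animal as a block Kcnq5, at 0.27, was called in EYFP animals (adjusted p = 0.0133). Without the trend Kcnq3 was at -0.40 (adjusted p = 0.00347) and -0.45 (adjusted p = 0.000349). Of the 7 genes for silent subunits, which alter other channels and form no channel alone, 1 was called in EYFP animals and 3 in hTyr animals.

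The two-pore potassium channels carry background current that holds cells near rest. All 8 genes lay below 0 in both treatments, and 6 of 8 fell in each: Kcnk2, Kcnk3, Kcnk4, Kcnk9, Kcnk12 and Kcnk13. The family's median log2 difference was -0.38 in EYFP animals and -0.46 in hTyr animals. Kcnk12 lay between 3.58 and 4.11 log2 CPM (median 3.83) in EYFP IP and between 4.15 and 4.55 (median 4.34) in EYFP input. The hTyr values were 3.65, 3.97, 3.38, 3.80 and 3.48 log2 CPM in IP and 4.51, 4.54, 3.99, 4.36 and 4.44 in input, a log2 difference of -0.71 ± 0.14 (SE, n = 5; adjusted p = 0.000378). The acid-sensitive channel genes Kcnk3 and Kcnk9 fell by 0.48 (adjusted p = 7.86e-05) and 0.39 (adjusted p = 0.00264) in EYFP animals, and by 0.50 (adjusted p = 0.000787) and 0.44 (adjusted p = 0.0134) in hTyr animals. After removal of the trend all 8 genes stayed below 0 in both treatments, 4 of them called in EYFP animals and 3 in hTyr animals, and Kcnk12, whose transcript has a GC content of 69.4%, was in neither.

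Among the 10 inward rectifier genes, Kcnj3, a subunit of the channel that noradrenaline and opioids open through G proteins, rose by 0.38 (adjusted p = 0.00211) and 0.46 (adjusted p = 0.00164). Kcnj3 was at 0.205 (adjusted p = 0.0302) and 0.187 (adjusted p = 0.0818) with the trend removed. Its partner Kcnj9 was called in neither treatment, and Kcnj5 and Kcnj6 have no row in the table and were not analysed here. Trend removal turned Kcnj9 to 0.16 in both treatments. Together with the animal as a block this was called (adjusted p = 0.0261 in EYFP and 0.0448 in hTyr animals). Kcnj11, the pore of the ATP-sensitive channel, fell by 0.51 (adjusted p = 5.82e-05) and 0.57 (adjusted p = 6.63e-05). Kcnj10, best known as the potassium channel of astrocytes and oligodendrocytes, fell by 0.31 (adjusted p = 0.0123) in EYFP animals. It was at -0.26 (adjusted p = 0.0610, and 0.00681 with the block) in hTyr animals. Of the astrocyte markers, 4 of 7 and 5 of 7 were higher in IP. The oligodendrocyte markers went both ways in EYFP animals. Mbp (-0.55), Mog (-0.40), Mobp (-0.63) and Opalin (-0.24) were called lower, and Cnp (0.58) and Ermn (0.24) were called higher.

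Of the 8 genes of calcium- and sodium-activated potassium channels, 1 rose and 4 fell in each treatment, and Kcnt2 was the one that rose. Kcnma1, the large-conductance channel, was called in neither, at 0.16 and 0.25, the latter with an adjusted p of 0.0493 under the block. The small-conductance genes Kcnn1 and Kcnn2 fell by 0.32 (adjusted p = 0.0172) and 0.23 (adjusted p = 0.0211) in EYFP animals and by 0.48 (adjusted p = 0.00619) and 0.37 (adjusted p = 0.0134) in hTyr animals. Neither gene was called in either treatment with the trend removed. Kcnn1 was then at -0.11 (adjusted p = 0.321) and -0.19 (adjusted p = 0.228), and Kcnn2 at -0.08 (adjusted p = 0.415) and -0.16 (adjusted p = 0.244). Kcnn3 fell by 0.29 (adjusted p = 0.0317) in EYFP animals and was at 0.03 in hTyr animals. Kcnmb4, a neuronal beta subunit of the large-conductance channel, was at -0.26 (adjusted p = 0.245) in EYFP animals and fell by 1.11 (adjusted p = 0.00343) in hTyr animals.

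Other genes of excitability were read from a list of 62 genes that act with these channels and do not carry their names, of which 52 are in the table. In EYFP animals 19 of the 52 rose and 12 fell (background 28.5% and 28.1% of all genes). In hTyr animals 20 rose and 9 fell (background 27.4% and 27.0%). The median log2 difference was 0.10 and 0.15. Nalcn, the sodium leak channel that depolarises resting neurons, rose by 1.12 (adjusted p = 6.53e-06) and 1.27 (adjusted p = 7.96e-08), and its partner Unc80 by 0.70 and 0.89. Of its other partners, Fam155a fell by 0.68 (adjusted p = 4.08e-06) and 0.57 (adjusted p = 0.000118), and Unc79 was at 0.15 (adjusted p = 0.108) and 0.04 (adjusted p = 0.783). Trpc5, a cation channel, rose by 1.04 and 1.34, and Slc8a1, a sodium-calcium exchanger, by 1.12 and 1.32. Dpp10, a partner of A-type channels, rose by 0.75 and 1.01, and Dpp6, its relative, was called in neither treatment. Pex5l, whose product regulates the trafficking of HCN channels, fell by 0.29 and 0.28. For hTyr against EYFP limma called 0 of the 52 in IP and in input, with 4 and 2 of them at an unadjusted p under 0.05, all lower. Of all genes, 6.19% were under that p in IP, 3.31% lower, and 3.03% in input, 2.04% lower.

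The channel genes that rose and fell also differed in sequence. The median transcript GC content was 43.9% for the 15 genes higher in both treatments, 56.5% for the 32 lower in both, 54.0% for the 28 called in neither, and 50% over the 12375 genes of the table with a matched transcript. The median transcript length was 7169, 3865, 3929 and 3495 bases. Across the 99 channel genes Spearman's rho between GC content and the log2 difference was -0.55 in EYFP animals and -0.61 in hTyr animals. Across all 12375 genes it was -0.34 and -0.44. These genes share their libraries and are not independent replicates, so the coefficients are descriptions. The highest GC content among the 15 higher genes was 49.1%, that of Cacna2d3 and Kcnd3, while the 32 lower genes ran from 39.0% (Cacnb2) to 69.4% (Kcnk12).

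**Figure D3:**
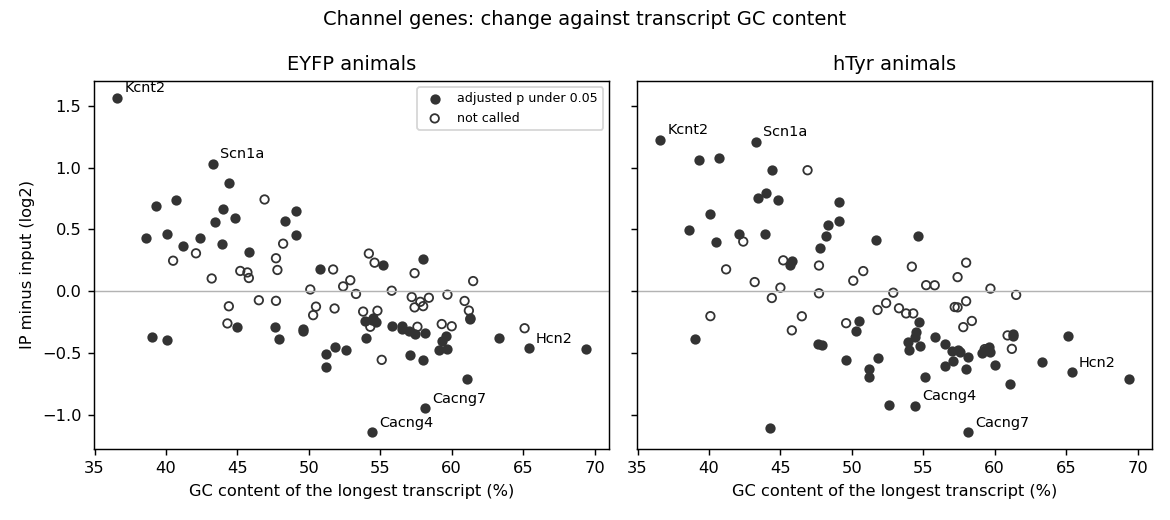
Log2 difference between IP and input (y axis) against the GC content of the longest annotated transcript in percent (x axis) for the 99 channel genes, in EYFP animals (left) and hTyr animals (right), filled where called. Genes with low GC content such as Kcnt2 and Scn1a lie above 0 and genes with high GC content such as Hcn2 below, with rho of -0.55 and -0.61.

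The second question was whether channel transcripts differed between hTyr and EYFP animals. In the 11 IP libraries limma called 0 of the 99 channel genes, against a background of 0.0556% of all genes, and voom on the recovered reads also called 0. At an unadjusted p under 0.05 there were 6 channel genes, all of them lower in hTyr, beside 6.19% of all genes at that level, 3.31% lower and 2.88% higher. The median log2 difference was -0.065 for the channel genes and -0.005 for all genes, and 30 of 99 lay above 0 against 48.2% of all genes. The 95% interval of the difference lay within 1 on the log2 scale in either direction for 92 of the 99 genes and within 0.5 for 73. Among HCN genes the differences were -0.05 for Hcn2 (interval -0.27 to 0.17), 0.11 for Hcn3 (-0.17 to 0.38) and 0.17 for Hcn4 (-0.26 to 0.61).

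The lowest p among channel genes was that of Kcnt1, the sodium-activated relative of Kcnt2. Its EYFP IP libraries lay between 6.02 and 6.35 log2 CPM (median 6.24), and the hTyr IP libraries held 5.84, 5.87, 6.02, 5.66 and 6.03. The groups overlapped through animal EYFP-504 and animals hTyr-508 and hTyr-510. The log2 difference was -0.34 ± 0.09 (SE, 5 against 6 animals; adjusted p = 0.486). In input the difference was -0.06 (adjusted p = 0.990).

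Kcnmb4 lay between 2.40 and 3.32 log2 CPM (median 2.66) in EYFP IP and was 1.29, 2.60, 2.34, 1.97 and 1.10 in hTyr IP. Animals hTyr-501 and hTyr-510 were lowest, and animal hTyr-502 lay within the EYFP range. The log2 difference was -0.90 ± 0.27 (SE, 5 against 6 animals; adjusted p = 0.617), from 39 to 76 reads per library in hTyr IP and 97 to 168 in EYFP IP. A pseudocount of 5 CPM brought it to -0.43, as the gene is low. In input it was -0.05 (adjusted p = 0.996).

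Cacna1d, the L-type channel gene, lay between 3.66 and 3.94 log2 CPM (median 3.82) in EYFP IP and was 3.60, 3.43, 3.60, 3.03 and 3.32 in hTyr IP. It was the single channel gene whose hTyr and EYFP IP libraries did not overlap (background 0.262% of all genes lower and 0.389% higher without overlap). The log2 difference was -0.41 ± 0.12 (SE, 5 against 6 animals; adjusted p = 0.617). In input it was -0.18 (adjusted p = 0.990). All 8 pore-forming calcium channel genes lay below 0 in hTyr IP against EYFP IP, with a median of -0.24. Once the trend was taken out, 1 of the 8 lay above 0. All of them but Cacna1i, at 0.01, also lay below 0 in input, from -0.03 (Cacna1h) to -0.28 (Cacna1e). This direction in IP was shared by the two-pore potassium channel genes, all below 0 but Kcnk3 at 0.04. The pore-forming sodium channel genes all lay above 0 but Scn8a at -0.13. Whether the families differed was not tested. Cacna1a followed Cacna1d at -0.26 (adjusted p = 0.770), and Cacng2, which falls outside the rule for naming genes, was at -0.23 (adjusted p = 0.787).

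Among channel genes that were higher in hTyr IP, the lowest p-values were those of Kcnj10 at 0.17, Cacng4 at 0.25, Scn3b at 0.17, Kcnip3 at 0.08 and Kcnn3 at 0.18, none of them called. Over 24 settings, the reported one included, the unadjusted p of Kcnt1 was under 0.05 in 24, that of Kcnmb4 in 23, Cacna1d in 22, Cacna1a in 19 and Cacng2 in 14, and none was called. The settings reuse the same IP libraries, and the genes were chosen with their p in view, so these counts are not separate support.

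Markers of another tissue moved with the treatment, in IP and input alike. The 4 cerebellar markers were all lower in hTyr than in EYFP at an unadjusted p under 0.05 by limma in IP and in input, and none was called. Their summed level was 88.2 to 106 CPM in hTyr IP against 106 to 288 CPM in EYFP IP, and 111 to 137 CPM against 126 to 303 CPM in input. Leaving out animals EYFP-504, EYFP-506 and EYFP-511, which were highest for Gabra6 or Pcp2, left 0 channel genes called in IP and 5 at an unadjusted p under 0.05. The part of the cerebellar RNA in the lower channel values was not tested.

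**Figure D4:**
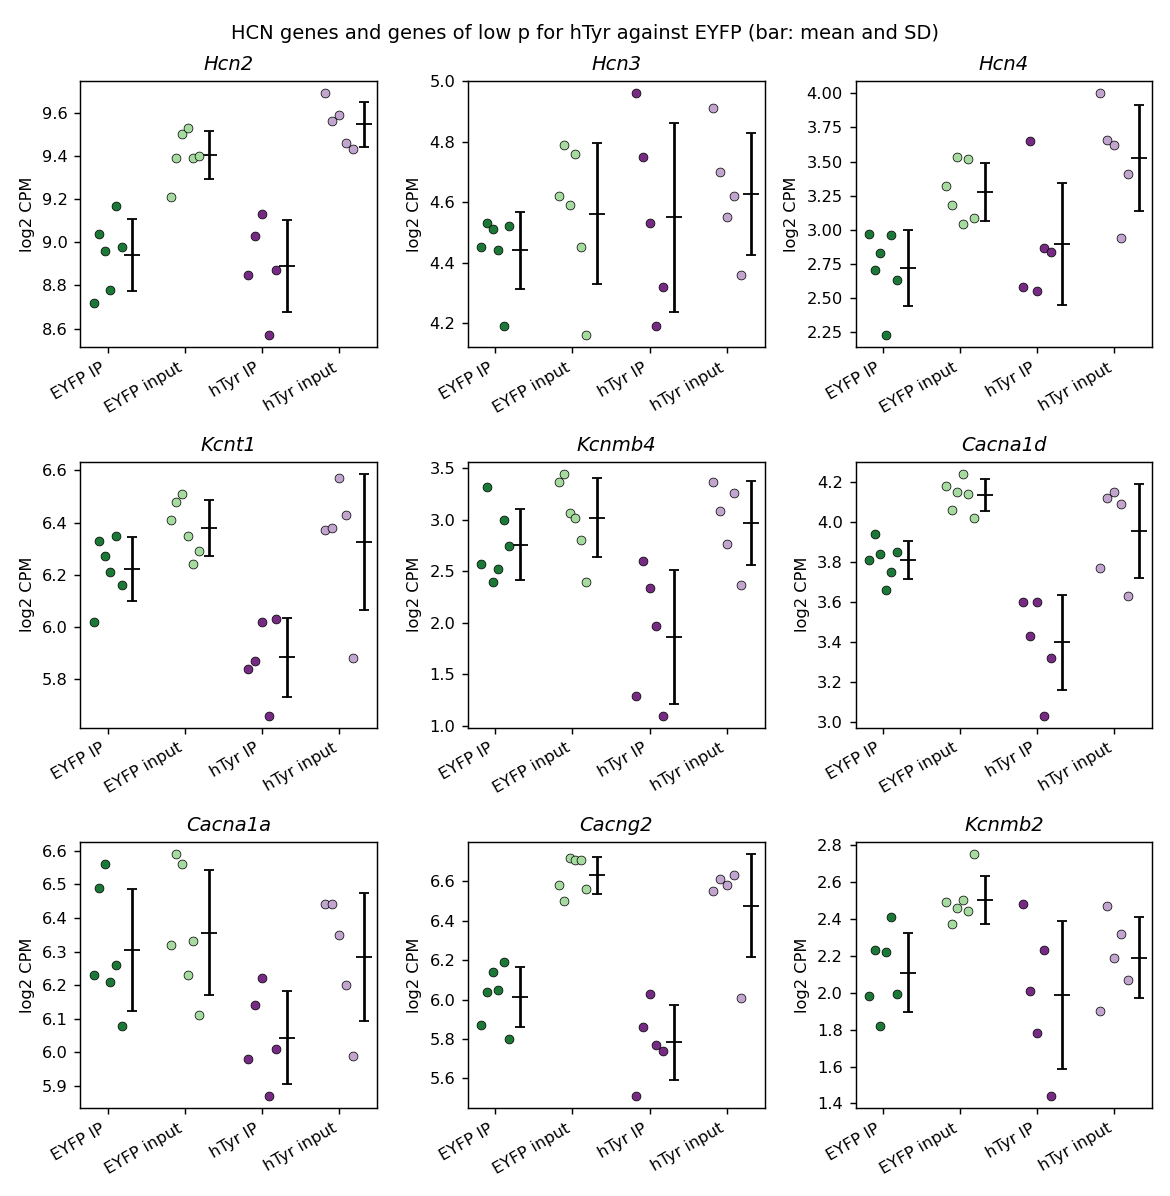
Log2 CPM in each library of the 4 groups (1 point per library, bar for mean and SD) for Hcn2, Hcn3 and Hcn4, for 5 channel genes of low p in hTyr IP against EYFP IP (Kcnt1, Kcnmb4, Cacna1d, Cacna1a and Cacng2), and for Kcnmb2, which had the lowest p in input. Hcn2 and Hcn4 differ between IP and input more than between treatments, and for Cacna1d all 5 hTyr IP values (3.03 to 3.60) lie below all 6 EYFP IP values (3.66 to 3.94).

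In the 11 input libraries limma again called 0 of the 99 genes (background 0.00794% of all genes), and voom called 0. Only Kcnmb2, another beta subunit of the large-conductance channel, had an unadjusted p under 0.05, against 3.03% of all genes and 2.04% in the lower direction, with a log2 difference of -0.31 ± 0.13 (SE, 5 against 6 animals; adjusted p = 0.990). It was between 2.37 and 2.75 log2 CPM (median 2.48) in EYFP input and 1.90, 2.47, 2.19, 2.32 and 2.07 in hTyr input, with overlap. The median difference of the channel genes was -0.039 beside -0.009 for all genes, and 37 of 99 lay above 0 against 46.4% of all genes. The 95% interval lay within 0.5 in either direction for 87 genes. No channel gene had input libraries without overlap between treatments (background 0.0953% higher and 0.0794% lower). Hcn2 had the lowest p of the genes that were higher in hTyr, at 0.14 (adjusted p = 0.990), followed by Kcnj14 at 0.18, Kcne1l at 0.22, Hcn4 at 0.25 and Cacng7 at 0.09. After Kcnmb2, the lower genes were led by Kcnd3 at -0.18, Kcnma1 at -0.24, Kcnb2 at -0.28 and Cacna2d1 at -0.25, and none of these was called.

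Whether the treatment difference in IP departed from that in input was tested as an interaction over all 22 libraries. It called 0 of the 99 channel genes (background 0.00794% of all genes), also with voom and with the animal as a block. At an unadjusted p under 0.05 there were 3, Kcnmb4 at -0.85, Kcnj14 at -0.33 and Kcnt1 at -0.28 (adjusted p = 0.996 for each), against 3.31% of all genes. The interaction was above 0 for 32 of the 99 channel genes and for 50.7% of all genes. The IP against input calls that were made in 1 treatment and not in the other are therefore not shown to differ between treatments, Kcnmb4 and Kcnn3 included. The comparisons of hTyr with EYFP share their EYFP libraries with the comparisons of IP with input in EYFP animals.

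A few channel genes split the animals rather than the groups. Kcne2, an auxiliary subunit abundant in the choroid plexus, was at 0.89, -0.83 and 0.69 log2 CPM in the IP libraries of animals EYFP-504, hTyr-501 and hTyr-509, and between 3.06 and 3.84 in those of the other 8. The same 3 animals were low in input, at 0.55, -0.05 and 1.23 against at least 3.04 in the others. Ttr, the main transcript of the choroid plexus, was likewise 7.33, 7.30 and 8.65 log2 CPM in the IP of those animals and at least 10.09 in the others. Within animals Kcne2 differed between IP and input by -0.78 to 0.37 on the log2 scale, higher in 4 of 6 EYFP and 2 of 5 hTyr animals.

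Kcnj13, an inward rectifier of the choroid plexus and other epithelia, shared this split but not the balance of IP and input. It was higher in IP than in input in 6 of 6 EYFP animals, by 0.12 to 1.12, and in 5 of 5 hTyr animals, by 0.03 to 1.75. Its mean log2 difference was 0.74 ± 0.35 (SE, n = 6; adjusted p = 0.0812) and 0.98 ± 0.49 (SE, n = 5; adjusted p = 0.0991). With the animal as a block it was called in both treatments, with adjusted p-values of 0.000149 and 0.000870, and with animals hTyr-501, EYFP-504 and hTyr-509 left out it was 0.67 (adjusted p = 0.00681) and 1.16 (adjusted p = 0.00286). Ttr lay within 0.62 of input in every animal.

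Kcnh3 and Kcnj4, channel genes of forebrain neurons, were high in animals EYFP-504, EYFP-505 and hTyr-509. Kcnh3 was 2.93, 4.19 and 3.35 log2 CPM in their IP libraries and 0.17 to 1.75 in the others, and 3.09, 4.27 and 3.75 in their input against 0.70 to 2.09. Kcnj4 was 3.05, 3.94 and 3.84 log2 CPM in IP against 0.87 to 2.18 in the others. Neurod6, a transcription factor of forebrain excitatory neurons, was 3.87, 5.14 and 4.50 log2 CPM in the same IP libraries and at most 2.64 in the others. Kcnip2, whose product binds A-type channels, followed in part: animals EYFP-505 and hTyr-509 had its highest IP values, 6.01 and 4.97 log2 CPM. It was lower in IP than in input in all 11 animals, at -0.56 (adjusted p = 0.138) in EYFP animals and -0.69 (adjusted p = 0.0256) in hTyr animals, and with the animal as a block it was called in both, with adjusted p-values of 8.03e-05 and 4.96e-05.

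Counts were also made without these animals. Without animals EYFP-504, EYFP-505 and hTyr-509 limma called 58 channel genes in EYFP animals and 61 in hTyr animals for IP against input, and 0 for hTyr against EYFP in IP and in input. Without animals hTyr-501, EYFP-504 and hTyr-509 it called 49 and 42, and again 0. For IP against input over all 12596 genes, the first choice of animals gave 6449 and 6143 calls and the second 6182 and 5089. The part of choroid plexus and forebrain RNA in these values was not tested.

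**Figure D5:**
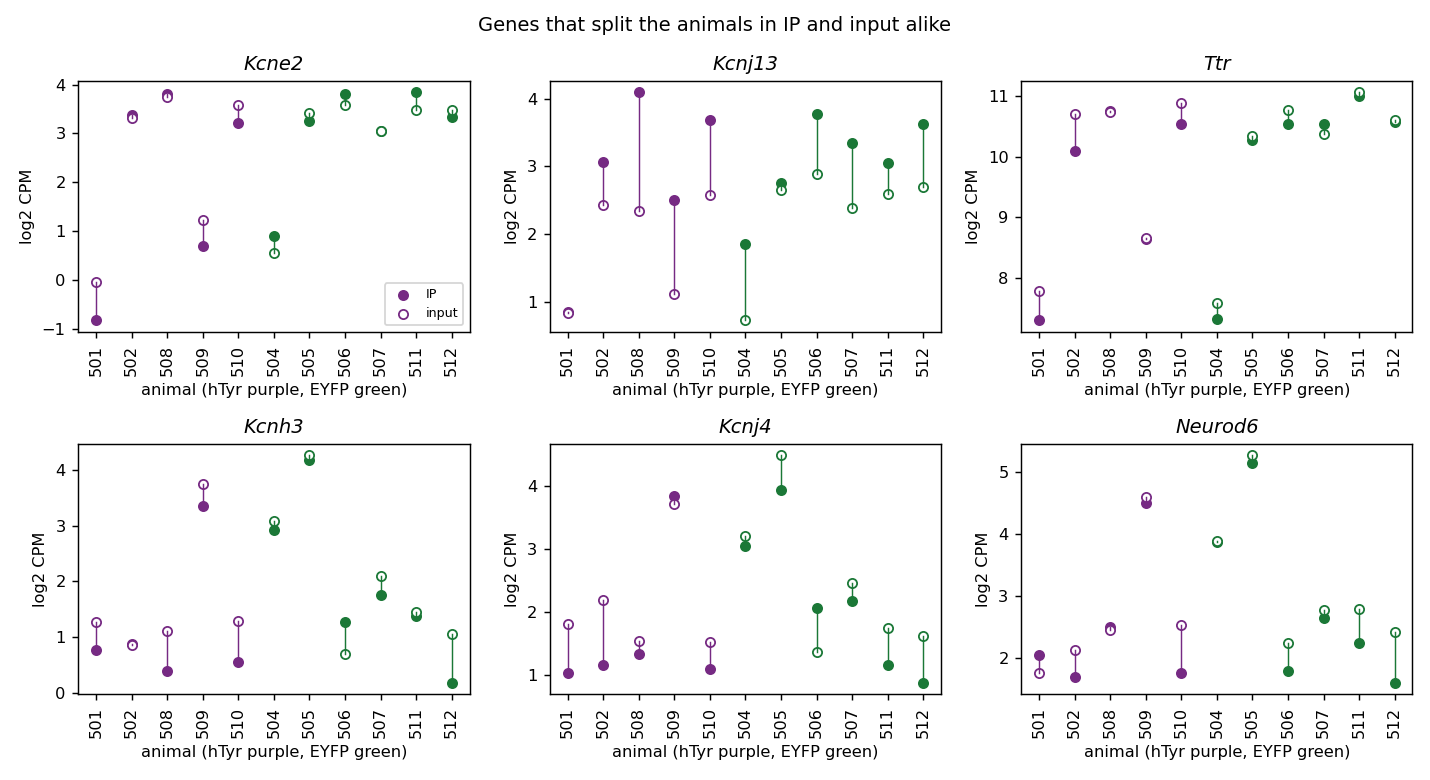
Log2 CPM of 6 genes by animal, with filled points for IP, open points for input, purple for hTyr and green for EYFP animals, and a line joining the libraries of an animal. Kcne2, Kcnj13 and Ttr are low in animals hTyr-501, EYFP-504 and hTyr-509, and Kcnh3, Kcnj4 and Neurod6 are high in EYFP-504, EYFP-505 and hTyr-509, in IP and input alike.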

How the data were processed

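RNA of immunoprecipitated and input material from 11 mice was sequenced, 22 libraries in all. The authors deposited log2 CPM (normalized read counts on a log2 scale) of 12596 genes in a filtered table; STAR, featureCounts and mm10 are named per the submitters' processing notes, while versions, filter and normalization method are not given in the sources used here. The values back-transformed to whole reads (100.0% within 0.1 read) once a pseudocount of 2 reads was removed, and gave 12654489 to 25100142 reads per library. The depth limits low genes most.

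Here limma 3.58.1 (R 4.3.3, lmFit and eBayes with trend) was fitted to the log2 values over all genes, separately for IP against input in EYFP and in hTyr animals, and for hTyr against EYFP in IP and in input. The interaction used all 22 libraries. P-values were adjusted by Benjamini-Hochberg over all genes, with a threshold of 0.05, and the procedure was tested on simulated data. The simulated libraries were drawn independently, so that test does not cover the pairing of libraries by animal. Standard errors are limma's. Libraries of an animal carry the same number in their titles and deviated together (mean r 0.448, lowest 0.279, over 11 animals), so that the animal is the block in the alternative fits.

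The members and all lists were chosen with earlier results of these data known. Named were, per comparison, up to 5 called channel genes with the largest rise and fall among those without overlap between groups, a list of channel genes named whatever their values and, where no channel gene was called, the 5 of lowest p in each direction. Genes that the rule does not give, chosen with their values in view, were Cacna2d3, Kcna4, Kcnab1, Kcnc1, Kcne2, Kcnh3, Kcnj4 and Kcnj13 for IP against input and Cacng2 for hTyr against EYFP in IP. Some channel genes are in the fits and counts but are not reported by name here.

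Alternatives were no trend, quantile normalization, median centring, only the upper 75% of genes by mean level, 5 CPM as the pseudocount, weights for library quality, 1 spread over all libraries, voom on the recovered reads, removal of a loess trend (span 0.4) on length and GC content, the replicate block, and each animal left out. Leaving out 3 animals at once (EYFP-504, EYFP-505 and hTyr-509; EYFP-504, EYFP-506 and EYFP-511; hTyr-501, EYFP-504 and hTyr-509) was chosen after seeing the data, as were the choroid plexus (Ttr, Folr1) and forebrain (Neurod6, Camk2a) markers. Lengths and GC content come from the longest transcript of GENCODE vM21, matched for 12375 genes (98.2%), promoters and coordinates from RefSeq GRCm38.p6. Figures were drawn with matplotlib 3.10.9.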

Additional observations from a re-analysis of the deposited data

Results flagged for a closer look

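In 240 groups of libraries (60 named genes in 4 groups), 16 held a highest or lowest library that stood apart from the rest by Dixon's test, and chance alone gives about 12. Of these, 7 belong to the genes that split the animals. Kcne2 was lowest in animal EYFP-504, at 0.89 log2 CPM in EYFP IP (next 3.06) and at 0.55 in EYFP input (next 3.04), and Kcnj13 was lowest in the same animal's input, at 0.73 (next 2.39). Kcnh3 was highest in animal hTyr-509, at 3.35 in hTyr IP (next 0.88) and 3.75 in hTyr input (next 1.29), as was Kcnj4 in hTyr IP, at 3.84 (next 1.33). Kcnip2 was highest in animal EYFP-505, at 6.01 in EYFP IP (next 4.71).

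The other 9 were spread over animals. The high ones were Cacna1i at 6.13 log2 CPM (next 5.83) in the hTyr input of animal hTyr-501, Kcnk2 at 5.42 (next 5.17) in the hTyr input of hTyr-509, Kcnj14 at 3.88 (next 3.58) in the EYFP IP of EYFP-507, and Kcnmb2 at 2.75 (next 2.50) in the EYFP input of EYFP-512. The low ones were Cacng2 at 6.01 (next 6.55) in the hTyr input of hTyr-510, Cacng7 at 6.88 (next 7.48) in the hTyr IP of hTyr-509, Hcn3 at 4.19 (next 4.44) in the EYFP IP of EYFP-511, and Kcnip4 at 5.41 (next 5.76) and Scn1a at 5.88 (next 6.41) in the EYFP input of EYFP-505.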

How the results depend on the processing

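Removing the length and GC trend moved the count of channel genes called for IP against input in hTyr animals from 63 to 41, and that in EYFP animals from 55 to 43. Calls over all genes went from 6853 of 12596 to 6413 of 12375 in hTyr animals, and from 7123 to 6876 in EYFP animals. Leaving out animals EYFP-504, EYFP-506 and EYFP-511, chosen after seeing the data, left 30 calls in EYFP animals, all among the 55. Calls over all 12596 genes fell from 7123 to 3619 in this setting. Over the remaining alternatives the channel counts lay between 45 and 71 in EYFP animals and between 42 and 68 in hTyr animals. The animal as replicate block, paired by the animal, gave 71 and 68 calls, which included all 55 and all 63, and for the interaction 0. With the block, calls over all genes rose to 8133 in EYFP animals and 7440 in hTyr animals. Leaving out 1 animal gave 46 to 58 calls in EYFP animals and 50 to 61 in hTyr animals. For hTyr against EYFP in IP and in input and for the interaction, all alternatives called 0 channel genes.

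Of 2808 values of single genes under an alternative, 2555 kept their direction and side of the threshold, 140 fell below it, 65 rose past it and 48 turned their direction. With the trend removed, with or without the replicate block, the turned values in EYFP animals were Hcn3 0.11, Scn3a -0.063, Cacna1a 0.21, Cacna1h 0.036, Kcnj9 0.16, Kcnma1 -0.084, Kcnt1 0.075 and Kcnh3 0.12. In hTyr animals they were Hcn3 0.24, Scn3a -0.042, Scn9a -0.096, Cacna1a 0.11, Cacna1b 0.081, Kcnj9 0.16, Kcnma1 -0.095 and Kcnn3 -0.30. Of these turned values, that of Cacna1a in EYFP animals was a call (adjusted p = 0.0300, and 0.0035 with the block). Kcnj9 was called with the block, in EYFP animals (adjusted p = 0.0261) and in hTyr animals (adjusted p = 0.0448). Kcnn3 in hTyr animals was -0.040 with median centring, -0.015 with sample quality weights and -0.0005 without animals hTyr-501 and hTyr-509. Without EYFP-504 and EYFP-505, Cacna1b was -0.029 in EYFP animals, and without EYFP-504, EYFP-506 and EYFP-511 Kcne2 was -0.093. Leaving out 1 hTyr animal at a time gave a range of -0.11 (without hTyr-501) to 0.15 for Kcnn3, -0.071 to 0.11 (without hTyr-508, and 0.029 without hTyr-509) for Cacna1b, -0.081 to 0.043 (without hTyr-508, and 0.0051 without hTyr-509) for Kcnip1, -0.11 to 0.0068 (without hTyr-509) for Hcn3 and -0.17 to 0.066 (without hTyr-509) for Kcnq3. Leaving out EYFP-504 and EYFP-505 as well leaves the hTyr fit as it is without hTyr-509 alone. The cause of these changes was not tested.

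Reads limit low genes: Kcnt2 had 23 to 60 reads per library in EYFP input and Kcnmb4 39 to 76 in hTyr IP. With 5 against 6 animals, the 95% interval of the treatment difference in IP reached beyond 1 in some direction for 7 of 99 channel genes. A gene that was not called is not shown to be unchanged, in these 7 or in the others. Kcnt1, at -0.34, and Cacna1d, at -0.41, had intervals within 1 and adjusted p-values of 0.486 and 0.617.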
